A study of Danio rerio with 12 samples.

Results

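The genes of the activin, inhibin and follistatin family were followed through offspring of zebrafish fed methylmercury (MeHg). The 6 genes, of 32674 in the deposited tables, were chosen by symbol: the beta-subunit genes inhbb (ENSDARG00000040777), inhbaa (ENSDARG00000012671) and inhbab (ENSDARG00000024759), the alpha-subunit gene inha (ENSDARG00000052433), and the follistatin genes fsta (ENSDARG00000052846) and fstb (ENSDARG00000057992). All 6 had a row in both tables, and 5 reached the minimum mean of 10 scaled counts over the 12 libraries that a gene needed to enter the fit over all genes. The family was picked because inhbb stood near the top of a test across all genes. Its differences between diets, and the p-values it was chosen with, are therefore given as a description from which no call is made. Calls are made for the other 4 members in the fit.

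RNA was sequenced from F1 embryos of the EK strain at 5 days post-fertilization. Their parents had eaten diets with 0 ppm (control), 1 ppm, 3 ppm or 10 ppm MeHg over the whole life cycle. Each diet had 3 libraries, each made from a pool of 5 whole embryos, so a change in expression is an average over all tissues, and fewer cells of a type cannot be told apart from less RNA per cell. No label tells if pools of 1 diet had separate parents or clutches, so every error and p-value here reflects differences among these pools, which may be technical.

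Activins are secreted dimers of beta subunits that belong to the transforming growth factor beta superfamily. They bind type II and then type I serine/threonine kinase receptors, which phosphorylate Smad2 and Smad3. A beta subunit joined to the alpha subunit forms inhibin, which opposes activin, and follistatins bind activins outside the cell and keep them from their receptors. In vertebrates the family is best known for the control of follicle-stimulating hormone in the pituitary and of the gonads, and activins and follistatins also act in muscle growth, in the pancreas and in early development.

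The deposited values are fragment counts after division by a size factor of the library, called scaled counts here. Depth recovered from the values was 7.04 to 9.62 M (mega) fragments in controls, 5.63 to 7.44 M at 1 ppm, 8.78 to 11.4 M at 3 ppm and 8.02 to 11.8 M at 10 ppm. The libraries also differed in the state of the circadian clock. The clock repressor gene per1b had 549 to 864 scaled counts in control libraries 2 and 3 and 1 ppm libraries 2 and 3, and 49.4 to 78.6 in the other 8, which hold all libraries of 3 and 10 ppm. The clock gene nr1d1 split the same libraries, with 395 to 1694 scaled counts against 6.61 to 52.4.

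The beta-subunit gene inhbb encodes the subunit of activin B and stood higher at the 3 and 10 ppm parental diets than at the control and 1 ppm diets. Its scaled counts were 85.2, 112 and 126 in control libraries 1 to 3 and 106, 92.9 and 90.1 at 1 ppm. They were 180, 207 and 300 at 3 ppm (299.6 before rounding) and 206, 257 and 324 at 10 ppm. Every library of the 3 and 10 ppm diets lay above every library of the control and 1 ppm diets, with 6 libraries on each side, while control overlapped 1 ppm and 3 ppm overlapped 10 ppm. The lowest of the upper 6, 180, was 1.42 times the highest of the lower 6, 126. Such a separation in this direction was found for 0.598% of the 18390 tested genes. This arrangement of the libraries is the one the gene was chosen with, so nothing further is read from it.

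**Figure D1:**
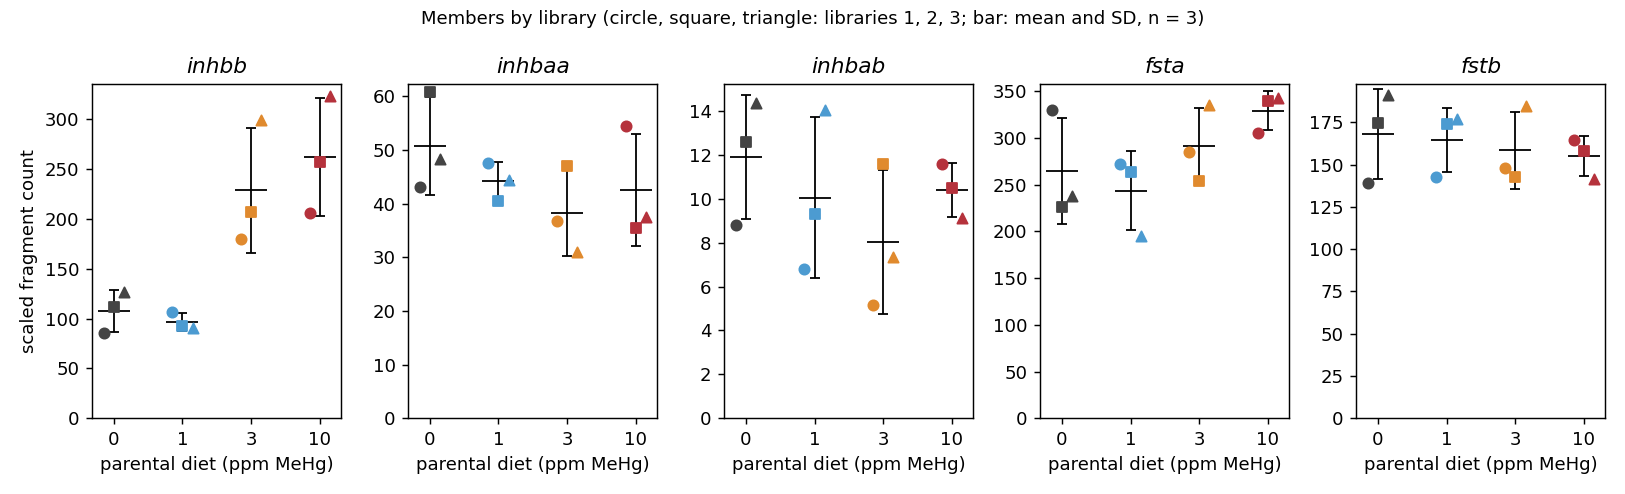
Scaled fragment counts (y axis, from 0) of the 5 members in the fit by parental diet in ppm MeHg (x axis); symbols are libraries 1, 2 and 3 and bars the mean and SD of 3 libraries. For inhbb the 6 libraries of 3 and 10 ppm sit between 180 and 324 and the other 6 between 85.2 and 126, whereas the diets overlap for inhbaa, inhbab and fstb.

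Mean scaled counts of inhbb were 108 ± 20.9 (control), 96.4 ± 8.66 (1 ppm), 229 ± 62.8 (3 ppm) and 262 ± 59.2 (10 ppm; SD, n = 3). The log2 difference from control, on the log2(scaled count + 1) scale, was -0.14 (SE 0.21) at 1 ppm, 1.06 (SE 0.21) at 3 ppm and 1.27 (SE 0.21) at 10 ppm. These correspond to folds of 2.09 at 3 ppm and 2.41 at 10 ppm. Between exposed diets the log2 difference was 1.21 for 3 against 1 ppm, 1.41 for 10 against 1 ppm and 0.21 for 10 against 3 ppm (SE 0.21 for each). The comparisons with control share the same 3 control libraries.

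The values that drew attention to inhbb were its ranks by p in the limma fit over the 18390 tested genes. It was 12th at 3 ppm, 2nd at 10 ppm and 4th in the F-test over the 4 diets. Its adjusted p in these was 0.323, 0.202 and 0.0581 with limma. In the trend over diet ranks it was 6th, with a slope of 0.50 per rank (SE 0.09, limma adjusted p = 0.107). Over the alternatives run, its adjusted p in the F-test ranged from 0.0212 to 0.636. These values led to the choice of the gene and are no evidence apart from it.

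Within diets, the library of low per1b had the lowest inhbb of the controls and the highest of the 1 ppm diet. Among the libraries of low per1b, control 1 and 1 ppm 1 had 85.2 and 106 scaled counts of inhbb, and the 6 libraries of 3 and 10 ppm had 180 to 324. The 4 libraries of high per1b had 90.1 to 126. With log2 per1b as a covariate the log2 difference was 1.18 at 3 ppm and 1.40 at 10 ppm, and without the 4 libraries of high per1b it was 1.38 and 1.59. The values without the 4 libraries rest on 1 control library. With the covariate the lowest limma adjusted p of the 5 members in the fit was 0.992 at 3 ppm and 0.894 at 10 ppm. Without it these were 0.323 and 0.202.

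Sequencing depth differed between the diets too. The highest inhbb value of each upper diet, 300 (299.6) and 324, was in the deepest library of that diet, with 11.4 and 11.8 M fragments. Control library 2, with 9.62 M fragments, had 112 scaled counts of inhbb, and 3 ppm library 1, with 8.78 M, had 180. The part of depth in the result was not tested. The counts behind these values were 77 to 569 fragments per library. At the lowest, in 1 ppm library 3, the exact Poisson 95% interval was 60.8 to 96.2 fragments, which covers counting error only.

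The other beta-subunit genes did not separate the diets in this way. Scaled counts of inhbaa, which encodes a subunit of activin A, were 43.1, 60.8 and 48.4 in controls and 47.6, 40.6 and 44.5 at 1 ppm. They were 36.9, 47.0 and 31.0 at 3 ppm and 54.6, 35.5 and 37.6 at 10 ppm, so every pair of diets overlapped. The log2 difference from control was -0.40 at 3 ppm (95% interval -0.89 to 0.08, limma adjusted p = 0.535) and -0.26 at 10 ppm (-0.75 to 0.23, adjusted p = 0.879).

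Its paralog inhbab was the rarest tested member, with 7 to 18 fragments per library and a mean of 10.1 scaled counts, just above the minimum of 10. It had 8.79, 12.6 and 14.3 scaled counts in controls, 6.80, 9.29 and 14.0 at 1 ppm, 5.16, 11.6 and 7.33 at 3 ppm and 11.6, 10.5 and 9.10 at 10 ppm. All diets overlapped. The intervals were wide, with a log2 difference of -0.55 at 3 ppm (95% interval -1.33 to 0.22, limma adjusted p = 0.586) and -0.16 at 10 ppm (-0.93 to 0.61, adjusted p = 0.947). At 10 ppm the value was 0.41 (SE 0.44) with log2 per1b as a covariate and 0.21 (SE 0.51) without the 4 libraries of high per1b.

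The alpha-subunit gene inha, whose product distinguishes inhibins from activins, was close to undetected. Its value was 0 in 10 of the 12 libraries and matched 1 fragment in each of control library 3 and 10 ppm library 1. A count of 0 allows up to 3 fragments, a one-sided 95% limit for counting error, which is 1.69 to 3.51 scaled counts depending on the library. No difference between diets in inha could be detected at this depth, and no fold is given.

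Of the follistatins, fsta was the more variable. It had 330 (330.4), 227 and 238 scaled counts in controls and 272, 264 and 195 at 1 ppm. It had 285, 254 and 335 at 3 ppm and 305, 340 (339.9) and 343 at 10 ppm. The 10 ppm libraries lay above all 3 of 1 ppm, a separation found in this direction for 6.37% of tested genes, and overlapped the controls through control library 1. The log2 difference from control was 0.15 at 3 ppm (95% interval -0.22 to 0.51, limma adjusted p = 0.765) and 0.33 at 10 ppm (-0.04 to 0.70, adjusted p = 0.851). It did not pass at either dose, nor for 10 against 1 ppm (log2 difference 0.45, 95% interval 0.08 to 0.81, adjusted p = 0.602), nor in the trend over diets (slope 0.13 per rank, SE 0.05, adjusted p = 0.459).

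In the 2 diets that hold both clock states, the library of low per1b had the highest fsta. Control library 1, of low per1b, had 330 scaled counts of fsta (330.4) against 227 and 238 in the controls of high per1b, and 1 ppm library 1 had 272 against 264 and 195. Across diets fsta ranged from 195 to 264 in the 4 libraries of high per1b and from 254 to 343 in the 8 of low per1b. With log2 per1b as a covariate the log2 difference was -0.15 at 3 ppm and 0.0049 at 10 ppm, and without the 4 libraries of high per1b it was -0.19 and -0.0065. Diet and clock state cannot be told apart here beyond these values, since no library of 3 or 10 ppm had high per1b.

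**Figure D2:**
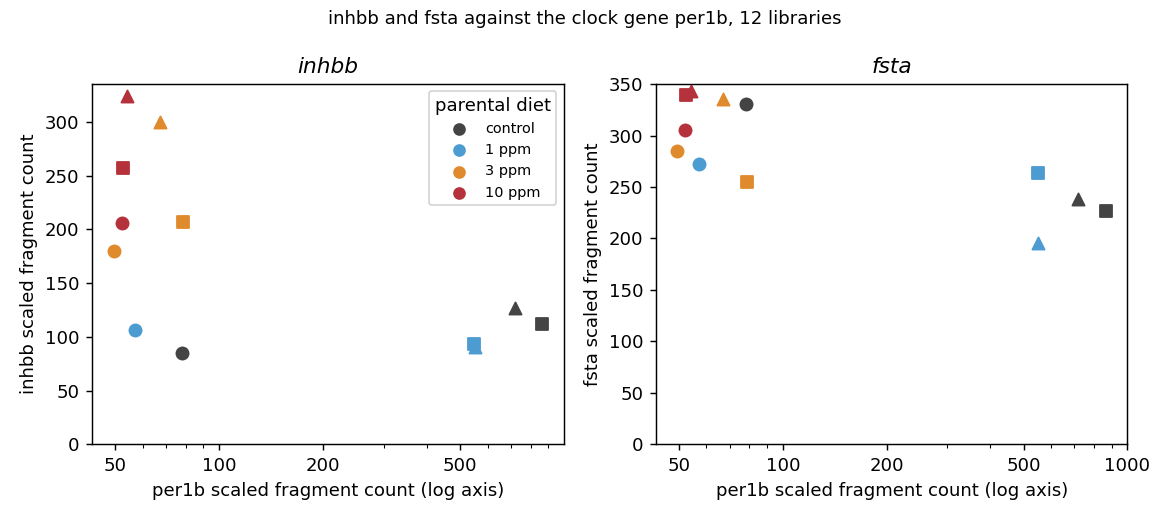
Scaled counts of inhbb (left) and fsta (right, y axes from 0) against those of the clock gene per1b (x axis, log scale) in 12 libraries; colours are parental diets and symbols libraries 1, 2 and 3. At low per1b, inhbb holds control 1 and 1 ppm 1 at 85.2 and 106 below the 6 libraries of 3 and 10 ppm, while fsta of control 1 lies among them.

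Its paralog fstb was the steadiest member, with 139 to 191 scaled counts over the 12 libraries. Its mean was 168 ± 26.7 (control), 165 ± 18.8 (1 ppm), 158 ± 22.8 (3 ppm) and 155 ± 11.8 (10 ppm; SD, n = 3). The diets overlapped, and the log2 difference from control was -0.08 at 3 ppm (95% interval -0.42 to 0.26) and -0.11 at 10 ppm (-0.45 to 0.23; limma adjusted p = 0.867 and 0.912). The intervals of fstb, fsta and inhbaa at both doses all lay below a doubling. With log2 per1b as a covariate both fstb values were 0.17. In the 4 libraries of high per1b fstb had 174 to 191 scaled counts, and in the 8 of low per1b 139 to 184, so the ranges overlapped. Of the latter, control 1 and 1 ppm 1 had 139 and 143, and the 6 libraries of 3 and 10 ppm had 142 to 184.

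**Figure D3:**
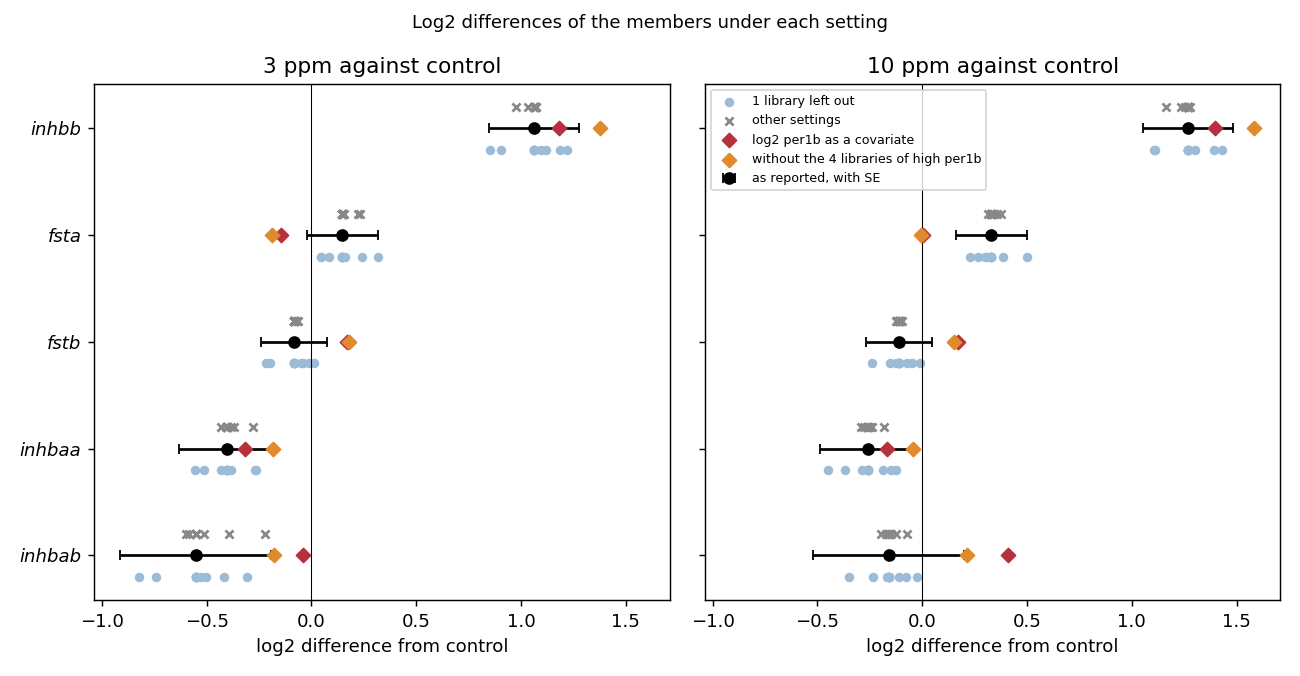
Log2 difference from control (x axis) of each member in the fit (y axis) at 3 ppm (left) and 10 ppm (right); black points with bars are the reported values with SE, pale points leave out 1 library, crosses are other settings, and diamonds use per1b. At 3 ppm inhbb lies between 0.85 and 1.38, and fsta and fstb change side of 0 with per1b.

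Leaving inhbb aside, 0 of the 4 tested members passed with limma at 1, 3 or 10 ppm against control. The shares of all tested genes that passed were 0%, 0.0163% and 0%. Likewise 0 of 4 passed in the F-test (0.0163% of tested genes), the trend (0.0218%), 3 against 1 ppm (0.0163%), 10 against 1 ppm (0%) and 10 against 3 ppm (0.0163%), and limma-voom called 0 in each of these. At an unadjusted p under 0.05 there were 0 of the 4 at 1, 3 and 10 ppm, against 1.96%, 10.4% and 5.71% of tested genes. There were 0 in the F-test (8.59%) and 1 in the trend, fsta (10.3%). With inhbb included, the median log2 difference of the 5 members in the fit was -0.14, -0.08 and -0.11, against -0.0078, -0.0041 and 0.015 over all tested genes. Members below control were 5 of 5 at 1 ppm, 3 of 5 at 3 ppm and 3 of 5 at 10 ppm. Of all 18390 tested genes, 9521, 9314 and 8731 were below control at these doses. Against control, 0 members were separated at 1 ppm (3.26% of tested genes upwards, 2.77% downwards). At 3 ppm inhbb was separated upwards, as were 8.27% of tested genes, and 0 members downwards (9.45%). At 10 ppm inhbb was separated upwards (5.55%) and 0 members downwards (4.81%). Between exposed diets, inhbb was separated upwards for 3 against 1 ppm (10.6%), inhbb and fsta for 10 against 1 ppm (6.37%), and no member for 10 against 3 ppm (6.54%). Downwards there were 0 members in these comparisons, against 11.2%, 6.41% and 4.42% of tested genes. In the direction opposite to inhbb, 0 members and 0.495% of tested genes were separated for 3 and 10 ppm against control and 1 ppm.

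Levels were compared between genes with FPKM, which the authors scaled by transcript length. The median over 12 libraries was 19.7 FPKM for fsta, 15.3 for fstb, 9.51 for inhbb, 2.25 for inhbaa and 0.648 for inhbab. Both follistatins exceeded inhbb in all 6 control and 1 ppm libraries. At 3 and 10 ppm fsta still exceeded inhbb in every library, while fstb did so in 2 of 3 and 1 of 3. In every library inhbb exceeded inhbaa and inhbaa exceeded inhbab. The follistatin genes fsta and fstb did not keep an order, with fsta higher in 9 of 12 libraries, namely 1 of 3 controls, 2 of 3 at 1 ppm and all 3 at 3 ppm and at 10 ppm.

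**Figure D4:**
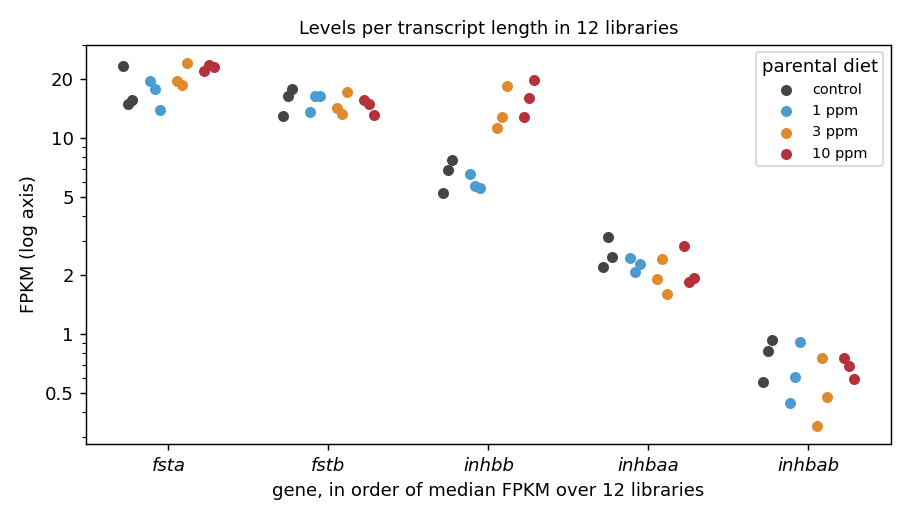
FPKM (y axis, log scale) of the 5 members in the fit in 12 libraries, in order of median level; colours are parental diets. The inhbb libraries of 3 and 10 ppm, from 11.2 to 19.9 FPKM, reach the fstb range of 13.0 to 17.9 FPKM, and inhbaa and inhbab stay below inhbb.

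The make-up of the beta-subunit RNA differed accordingly. Summed over inhbb, inhbaa and inhbab, mean FPKM was 10.04 ± 1.75 (control), 8.90 ± 0.536 (1 ppm), 16.7 ± 3.63 (3 ppm) and 19.1 ± 3.09 (10 ppm; SD, n = 3). The share held by inhbb was 63.7 to 69.5% in controls, 63.5 to 69.4% at 1 ppm, 80.1 to 89.9% at 3 ppm and 78.1 to 88.8% at 10 ppm. Summed follistatin FPKM was 33.8 ± 2.58 (control), 32.6 ± 1.95 (1 ppm), 35.9 ± 5.02 (3 ppm) and 37.5 ± 1.20 (10 ppm; SD, n = 3). Follistatin FPKM per beta-subunit FPKM was 2.87 to 4.54 in controls, 3.47 to 4.05 at 1 ppm, 2.005 to 2.52 (3 ppm) and 1.61 to 2.31 (10 ppm). Since inhbb is part of the beta sum, the share and the ratio, all are given as a description.

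The FPKM of fsta did not follow its scaled counts as closely as those of the beta subunits did. Scaled counts per FPKM, which depend on the transcript length assigned to a gene, ranged from 13.5 to 15.2 for fsta, a spread of 12.2%. The spread was 1.47% for inhbb, 1.22% for inhbaa and 3.57% for fstb, and its median was 4.82% over 16630 tested genes above 1 FPKM in every library. On FPKM with 0.1 added the log2 difference of fsta was 0.23 at 3 ppm and 0.37 at 10 ppm, against 0.15 and 0.33 on scaled counts.

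Of the pathway around the members, 146 genes in 8 lists by role were looked for, 111 had a row and 85 were tested. With limma 0 of the 85 passed at 1, 3 or 10 ppm or in the F-test, and limma-voom called 0. An unadjusted p under 0.05 was found for 1, 6, 4 and 9 of them, against 1.96%, 10.4%, 5.71% and 8.59% of all tested genes. At 3 ppm 55 of them were above control and 30 below, with a median log2 difference of 0.11, and at 10 ppm 50 and 35, with a median of 0.05. At 1 ppm 40 were above and 45 below, with a median of -0.01. Of all 18390 tested genes, 9076 were above control at 3 ppm, 9659 at 10 ppm and 8869 at 1 ppm. Separated from every control were 12 of the 85 upwards and 8 downwards at 3 ppm, against 8.27% and 9.45% of all tested genes. At 10 ppm they were 6 and 5, against 5.55% and 4.81%. All libraries of these diets had low per1b, whose part in the lists was not tested. At 3 ppm the summed scaled counts of 9 nerve cell markers were 8323 to 9547, against 10824 to 12830 in controls, and at 10 ppm they were 10279 to 12561. The most abundant of the 9 were stmn1b and snap25a, with means of 3471 and 3034 scaled counts over all libraries. Of the 9 markers, 7 were below control at 3 ppm and 2 above, and of all 18390 tested genes 9314 were below. At 10 ppm 3 of the 9 were below and 6 above, and 8731 of all tested genes were below. Of 10 tested cartilage and bone markers, 8 were above control at 3 ppm and 2 below, and at 10 ppm 5 and 5. The part of either marker list in the 3 ppm values of the pathway was not tested.

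Among receptors, the type II activin receptor gene acvr2aa had 510 ± 55.3 scaled counts in controls (509.7; SD, n = 3). It had 506 ± 19.3 at 3 ppm (505.5) and 542 ± 32.2 at 10 ppm, and the libraries of both doses overlapped the controls. Log2 differences at 3 and 10 ppm were 0.41 and 0.42 for acvr2b, another type II receptor gene, 0.11 and 0.07 for the type I receptor gene acvr1ba, and 0.59 and 0.11 for its paralog acvr1bb. None passed, and with log2 per1b as a covariate the acvr1bb values turned to -0.01 and -0.56. At 1 ppm, without the covariate, acvr1bb had -0.44. The 5 tested type II receptor genes had medians of 0.36 and 0.21, and the 6 type I genes 0.31 and 0.07. The smallest F-test p among type II genes was that of bmpr2a, a receptor gene for bone morphogenetic proteins, with 0.36 and 0.21 (F-test limma adjusted p = 0.590). Its value at 1 ppm was -0.42, farther from 0 than these. Its 10 ppm value ran from 0.045 to 0.50 with 1 library left out.

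Downstream, smad2, which carries the activin signal to the nucleus, had 148 ± 7.69 scaled counts at 3 ppm (148.5) against 127 ± 11.8 in controls and 127 ± 15.7 at 10 ppm (SD, n = 3). The inhibitory Smad gene smad7, itself induced by the pathway, had 109 ± 5.12 at 3 ppm against 79.3 ± 18.5 in controls and 90.8 ± 28.5 at 10 ppm. Neither passed (limma adjusted p = 0.562 and 0.481 at 3 ppm), although both were above every control at 3 ppm, as were 8.27% of tested genes. Log2 differences at 3 and 10 ppm were -0.03 and -0.21 for smad3a and 0.03 and 0.02 for smad3b, and the latter were -0.26 and -0.31 with log2 per1b as a covariate. The corepressor gene skilb, with the smallest F-test p of the Smads and their partners, had 0.44 and 0.49 (F-test adjusted p = 0.578). At 1 ppm skilb had -0.56, farther from 0 than these. It lay above every control at 3 ppm, as did 8.27% of tested genes. Its 10 ppm value ran from 0.15 without 10 ppm replicate 3 to 0.97 without 10 ppm replicate 1. Of 22 tested target genes 15 were above control at 1 ppm, 13 at 3 ppm and 14 at 10 ppm. The smallest F-test p was that of trim63b, a muscle ubiquitin ligase gene (F-test adjusted p = 0.548). It had -0.09, 0.56 and 0.66 at 1, 3 and 10 ppm.

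**Figure D5:**
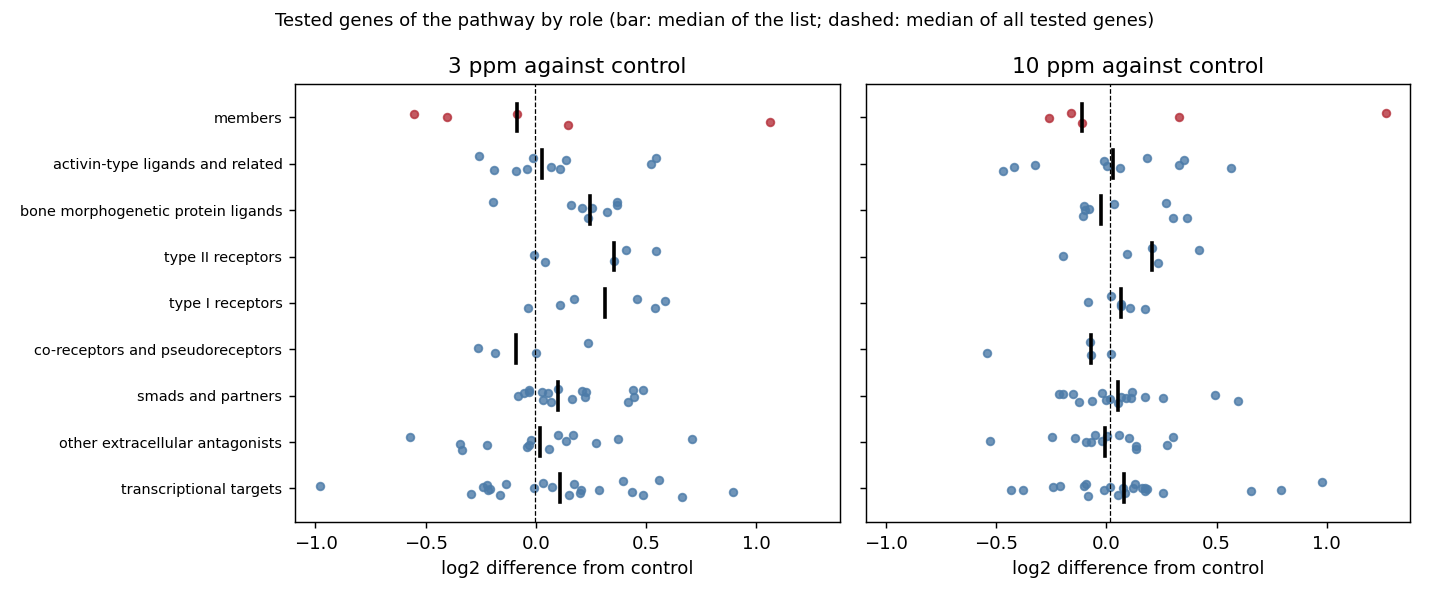
Log2 difference from control (x axis) at 3 ppm (left) and 10 ppm (right) of the members in the fit and of the tested pathway genes by role (y axis); each point is a gene, bars are list medians and the dashed line the median of all tested genes. The member farthest right is inhbb, at 1.06 and 1.27, and no other point reaches it in either panel. As inhbb was chosen with these values known, nothing is read from its place.

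Among other extracellular regulators, the follistatin-like gene fstl3, whose mammalian product also binds activin, had log2 differences of 0.10 at 3 ppm and 0.14 at 10 ppm. The related genes had -0.22 and 0.27 (fstl1a) and -0.03 and -0.09 (fstl1b). The pseudoreceptor gene bambia, an inhibitor of the family's receptors, had 0.0022 and -0.07. The chordin gene chd, an antagonist of bone morphogenetic proteins, had 0.71 and -0.05, and 0.39 at 1 ppm (F-test limma adjusted p = 0.549). The co-receptor gene rgma had -0.18 and -0.07, and 0.16 at 1 ppm. None passed at either dose. At 3 ppm chd lay above every control (8.27% of tested genes) and rgma below every control (9.45%). At 10 ppm fstl1a lay above every control (5.55%).

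Among related ligands, the myostatin gene mstnb, a brake on muscle growth in mammals, had 35.4 ± 4.70 scaled counts in controls, 33.3 ± 5.75 at 3 ppm and 25.4 ± 4.03 at 10 ppm (SD, n = 3). Its 10 ppm libraries lay below all controls, as did those of 4.81% of tested genes, and it did not pass (log2 difference -0.47, limma adjusted p = 0.851). The smallest F-test p among ligands was that of tgfb2 (F-test adjusted p = 0.550). Its log2 differences at 1, 3 and 10 ppm were -0.0084, -0.26 and -0.42. In the list of bone morphogenetic proteins it was that of bmp1a, a metalloprotease gene by its known function (F-test adjusted p = 0.578). The bmp1a values were -0.16, 0.37 and 0.03. Separated from every control were tgfb2 downwards at 10 ppm (4.81% of tested genes) and bmp1a upwards at 3 ppm (8.27%). The genes mstna, gdf11 and acvr1c were under the minimum mean, and acvr2ab, acvr2bb, tgfbr3, bambib, smad4a and lhb were not analysed here.

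Marker genes of the tissues where the family is best known had a wide range of levels, down to close to undetected. The pituitary genes gh1 (growth hormone) and pomca (proopiomelanocortin) had means of 149 and 57.6 scaled counts over all libraries. The alpha-subunit gene of pituitary glycoprotein hormones, cga, had a mean of 29.7 scaled counts. Its log2 differences were -0.47, -0.16 and 0.06 at 1, 3 and 10 ppm. The follicle-stimulating hormone gene fshb was close to undetected, with a mean of 0.673 scaled counts and libraries at 0 in every diet. This mean is under the 1.69 to 3.51 scaled counts that a count of 0 allows. The summed counts of the 17 pituitary and gonadotropin axis genes with a row were 313.7 to 420.0 in controls, 215 to 336 at 3 ppm and 278 to 431 at 10 ppm. For 15 gonad and germ cell genes they were 308 to 357, 314 to 391 and 299 to 347. The most abundant of these were sox9a and star, with means of 117 and 86.0 scaled counts over all libraries. Of the 15, only 6 reached the minimum mean of 10 scaled counts. The ranges overlapped the controls in both lists. The pituitary and gonadotropin axis list had 5 tested genes. All 5 were below control at 1 ppm (median -0.33) and at 3 ppm (median -0.32). Separated downwards were 0 at 1 ppm (2.77% of tested genes) and 2 at 3 ppm (9.45%). At 10 ppm 3 were below (median -0.0098), and 1 was separated upwards (5.55%). The gonadotropin axis gene gnrh3 was separated downwards at 3 ppm and upwards at 10 ppm. Over all 18390 tested genes, 9521 were below control at 1 ppm, 9314 at 3 ppm and 8731 at 10 ppm. Of the 6 tested gonad genes, 5 were below at 1 ppm (median -0.21). At each of 3 and 10 ppm 4 were below (medians -0.25 and -0.03). At 3 ppm 1 was separated upwards (8.27% of tested genes), sox9a, which was also listed as a cartilage marker. At 10 ppm 1 was separated downwards (4.81%). With limma 0 of either list passed. Endocrine pancreas markers, 13 with a row, summed to 2034 to 3633 in controls, 3008 to 3418 at 3 ppm and 2908 to 3349 at 10 ppm, also overlapping, and no marker of these lists was at 0 in all libraries. These sums mainly reflect neurod1, with a mean of 1825 scaled counts over all libraries, against 352 for isl1 and 172 for ins. Of 12 tested pancreas markers, 10 were below control at each of 1, 3 and 10 ppm, with medians of -0.23, -0.32 and -0.26. The other 2 at each dose were above control, the highest at 0.30, 0.83 and 0.71. Among the 12 markers, 1 was separated downwards at 1 ppm (2.77% of tested genes). At each of 3 and 10 ppm 5 were separated downwards (9.45% and 4.81%). With limma 0 passed (1, 5 and 3 at an unadjusted p under 0.05), and limma-voom called 0. In pools of whole embryos these values cannot be assigned to the pancreas. Nor can those of the lists above be assigned to the pituitary or the gonads. The glucagon gene gcgb, with the smallest F-test p of the pancreas list, had -0.81, -0.73 and -0.69 at 1, 3 and 10 ppm (F-test adjusted p = 0.567). The part of these markers in the values of the family was not tested. In the other marker lists the smallest F-test p belonged to gnrh3, sox9a, ryr1b and stmn1b. Log2 differences at 1, 3 and 10 ppm were -0.13, -0.32 and 0.21 for gnrh3 and -0.16, 0.52 and 0.02 for sox9a. They were -0.23, 0.47 and 0.17 for ryr1b and 0.0022, -0.61 and -0.21 for stmn1b. None of these passed (lowest F-test adjusted p = 0.483). At 3 ppm ryr1b was separated upwards (8.27% of tested genes) and stmn1b downwards (9.45%).

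The tested genes with a pattern over the 12 libraries most like that of inhbb were plxnb2a (Pearson r = 0.923, Spearman rho = 0.867), snx1a (0.908 and 0.895), plxnb3 (0.905 and 0.839), shroom1 (0.905 and 0.895) and cyp11c1 (0.903 and 0.902), on log2 scaled counts. Mean scaled counts of plxnb3 were 42.7 ± 1.85 (control), 42.6 ± 3.13 (1 ppm), 64.0 ± 2.09 (3 ppm) and 64.1 ± 13.4 (10 ppm; SD, n = 3). For fsta the closest were rnf24 (0.955 and 0.930), ccdc28b (0.952 and 0.902) and stx17 (0.951 and 0.895), and for fstb pa2g4b (0.890 and 0.846). For inhbaa the closest was zgc:165481 (0.902 and 0.853) and for inhbab si:ch211-225b10.3 (0.938 and 0.909). These are the highest Pearson values among all tested genes with a symbol, over 12 libraries that share diets, depth and clock state, and are given as a description.

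Neighbours of inhbb were taken by RefSeq gene order in the assembly GRCz12tu (the files use Zv9). Those given are the nearest that matched a tested gene by symbol or synonym. Their log2 differences were smaller, which is not read as a result, since inhbb was chosen with its differences known. On one side the adjacent gene gli2a, a transcription factor gene of Hedgehog signalling, had log2 differences of 0.37 (SE 0.14) at 3 ppm and 0.28 (SE 0.14) at 10 ppm, and the next, the peptide transporter gene slc15a2, had 0.22 and 0.08. On the other side, beyond 3 genes without such a match, lrp1bb had 0.19 and 0.23, and atp1a1b, a sodium pump subunit gene, -0.43 and -0.07. None of these passed with limma (lowest adjusted p = 0.396).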

How the data were processed

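RNA of 12 libraries was read as paired ends, per the labels. The submitters' processing notes name CASAVA 1.8.2, cutadapt, FastQC, TopHat, Cuffnorm and the build Zv9, without roles or settings. The deposited signal held fragment counts divided by 1 size factor per library, as read from the values: 98.1 to 98.6% of values above 0 were whole multiples of 1 step (tolerance 0.02 steps). The deposited FPKM values were scaled by the authors for length. Scaled counts per FPKM of inhbb spread by 1.47% over the libraries, while library totals of scaled counts ran from 6.17 to 6.74 M. The FPKM thus carried nearly the same library scaling as the scaled counts. The kit is not stated to keep strand, so overlapping genes cannot be separated. Recovered depth was 5.63 to 11.8 M fragments per library. Counting intervals and floors cover counting error only.

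limma 3.58.1 (R 4.3.3) was fitted to log2(scaled count + 1) for 18390 genes whose mean reached 10, with trend and robust moderation and all 12 libraries in 1 fit. All limma p-values are two-sided and were adjusted by the Benjamini-Hochberg method over all genes, with a threshold of 0.05. Fold changes on this scale understate those of low genes. The fit was checked on simulated independent counts with planted changes and no clock states, so the check does not cover the split by per1b. The members and the gene lists were chosen with earlier results of these data known. Genes named were all members, receptors and effectors fixed by role, the smallest F-test p of each list and the closest patterns. The gene neighbours of inhbb were added after their values were seen. Named besides these were per1b and nr1d1 as marks of clock state. The genes gh1, pomca, star, neurod1, isl1, ins and snap25a were named only as abundant members of the marker lists. Alternatives were another scaling, filters, pseudocounts, FPKM, limma-voom, a replicate block, fits on the compared groups alone, per1b as a covariate, other dose scales, and left-out libraries. Python 3.11.15 and matplotlib 3.10.9 drew the figures.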

Additional observations from a re-analysis of the deposited data

How the results depend on the processing

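No pathway gene and none of the 4 tested members besides inhbb passed at 1, 3 or 10 ppm against control or in the F-test under any alternative run. For inhbb the log2 difference lay between 0.85 and 1.22 at 3 ppm and between 1.104 and 1.43 at 10 ppm when 1 library was left out. Without the 4 libraries of high per1b it was 1.38 and 1.59, and 0.32 at 1 ppm, where it had been -0.14; 1 control and 1 library of 1 ppm were then assumed to vary like the others, and the cause was not tested. Counting inhbb, the members under the adjusted p threshold were 0 to 1 with 1 library left out in the F-test, in the trend and in 10 against 1 ppm, the 1 being inhbb each time. These counts rest on the values inhbb was chosen with and are no test of it. Its F-test adjusted p was 0.0396, 0.0272 and 0.0446 without control replicate 1, 3 ppm replicate 1 and 3 ppm replicate 3, up to 0.349 without 10 ppm replicate 2, 0.448 with log2 per1b as a covariate and 0.636 without the libraries of high per1b (limma). Over all genes, leaving out control replicate 1 raised the count from 3 to 17 at 3 ppm, from 0 to 41 at 10 ppm, from 3 to 9 in the F-test and from 4 to 146 in the trend. Other settings gave 2 to 7 at 3 ppm, 0 or 1 at 10 ppm, 2 to 7 in the F-test and 0 to 5 in the trend.

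With the replicate number as a block, 1 member was under the threshold in the F-test, inhbb, at a limma adjusted p of 0.0212, which is likewise no test of it. The block left the other 4 members and the pathway genes uncalled, and over all genes moved the trend from 4 to 1 and the F-test from 3 to 4. Same-numbered libraries were not taken as pairs. The 18 correlations of their deviations from the diet means ran from -0.23 to 0.47, and 6 were over 0.1. Between differently numbered libraries they ran from -0.56 to 0.27. The highest, 0.47 (control 1 and 1 ppm 1) and 0.44 (control 3 and 1 ppm 3), joined libraries of the same per1b state. In control and 1 ppm, library 1 had low per1b and libraries 2 and 3 high per1b, so the block coincided with clock state there.

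Of 282 alternative values of the other 4 tested members, 18 changed direction and 0 had an adjusted p under 0.05. For the named list genes these were 68 and 0 of 1234. With log2 per1b as a covariate, and then without the 4 libraries of high per1b, the log2 differences that turned were inhbab 0.41 and 0.21 at 10 ppm, fsta -0.15 and -0.19 at 3 ppm, fstb 0.025 and 0.041 at 1 ppm, 0.17 and 0.18 at 3 ppm and 0.17 and 0.15 at 10 ppm. Without those libraries alone, inhbaa turned to 0.14 at 1 ppm and fsta to -0.0065 at 10 ppm. Under the same pair of settings, acvr1bb had -0.013 and -0.020 at 3 ppm and -0.56 and -0.50 at 10 ppm, and smad3b -0.26 and -0.22, and -0.31 and -0.24. At 10 ppm acvr1ba had -0.044 and -0.062, bambia 0.12 and 0.23, smad2 0.052 and 0.14, cga -0.84 and -0.48, bmpr2a -0.065 and -0.10, chd 0.18 and 0.057 and sox9a -0.32 and -0.30. The covariate alone turned bmp1a to -0.043 at 10 ppm, and the left-out libraries acvr1ba to -0.017 at 3 ppm. On FPKM plus 0.1 and plus 1, acvr2aa had 0.087 and 0.082 and fstl1b 0.0078 and 0.0084 at 3 ppm, and smad2 0.039 and 0.037 at 10 ppm. With limma-voom on recovered fragments bambia had -0.019 at 3 ppm. The cause was not tested.

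Leaving out 1 library turned fsta at 1 ppm (-0.22 to 0.053) and fstb at 1 ppm (-0.16 to 0.072) and 3 ppm (-0.21 to 0.014). At 3 ppm it also turned mstnb (-0.22 to 0.0076), acvr2aa (-0.095 to 0.060), bambia (-0.16 to 0.16), smad3a (-0.097 to 0.053), smad3b (-0.12 to 0.16), fstl1b (-0.29 to 0.13), fstl3 (-0.11 to 0.23) and cga (-0.41 to 0.10). At 10 ppm it turned acvr1ba (-0.0096 to 0.13), acvr1bb (-0.15 to 0.41), bambia (-0.23 to 0.055), smad2 (-0.088 to 0.090), smad3b (-0.14 to 0.20), smad7 (-0.062 to 0.35), fstl1b (-0.21 to 0.026), cga (-0.18 to 0.33), bmp1a (-0.17 to 0.25), rgma (-0.21 to 0.022), chd (-0.15 to 0.065), sox9a (-0.15 to 0.17) and ryr1b (-0.073 to 0.53).

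A minimum mean of 50 removed inhbaa and inhbab. limma-voom on recovered fragments was chosen after seeing the data; edgeR and DESeq2 were not run. Depth limits inhbab, with 7 to 18 fragments per library, and inha.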
